A study of Mus musculus with 12 samples.

Results

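Argonaute (Ago) proteins were immunoprecipitated from fetal liver of mice that lack the miR-144/451 locus, and the RNA crosslinked to them was sequenced by HITS-CLIP. The question addressed here is which genes, annotation classes and seed match classes the Ago antibody recovered above control IgG when the microRNAs of the locus are absent. The comparison used 6 of the 12 libraries of the study. Ago libraries 3, 12 and 13 and control IgG libraries 4, 8 and 14 all came from miR-144/451-/- embryos of strain C57BL/6J. The remaining 6 libraries came from wild-type (WT) embryos of that strain. They were precipitated with the Ago antibody (libraries 1, 9 and 10) or control IgG (libraries 2, 6 and 11) and are given beside the knockout (KO) values. Per the labels, each genotype was sampled in 3 replicates of fetal liver cells. The labels state no embryonic age, and they do not tie any Ago library to an IgG library of one liver. The p-values therefore measure the spread between libraries, part of which may be technical.

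A microRNA guides Ago to RNA through its seed, bases 2 to 8 counted from its 5′ end, which pair with complementary sites mostly in the 3′UTRs of messenger RNAs. The bound messenger RNA is then repressed by the TNRC6 and CCR4-NOT proteins that Ago recruits. Fetal liver is the blood-forming organ of the embryo and holds mainly erythroid cells beside the hepatocyte lineage. The miR-144/451 locus encodes microRNAs that accumulate in maturing erythroid cells, and the hairpin of miR-451a is cut by Ago2 itself and not by Dicer. Of the other microRNAs that the deposited table codes, miR-16-5p is made in most cell types and is known to restrain cell cycle genes, miR-122-5p is the main hepatocyte microRNA, and miR-21a-5p is found in many tissues.

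The seed classes rest on the sequences below, given 5′ to 3′ with the seed in capitals, as RefSeq lists them for GRCm38.p6. The first 3 come from the deleted locus on chromosome 11, and the other 2 from loci the knockout leaves intact.
miR-451a: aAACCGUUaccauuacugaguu
miR-144-3p: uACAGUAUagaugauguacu
miR-144-5p: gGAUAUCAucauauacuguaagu
miR-16-5p: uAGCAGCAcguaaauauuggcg
miR-21a-5p: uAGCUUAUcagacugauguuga
The 5 seeds all differ. The locus microRNAs lie at chr11:78073186-78073207, chr11:78073047-78073066 and chr11:78073010-78073032, all on the plus strand. An 8-mer site, the complement of the seed followed by an A, reads AACGGTTA for miR-451a, ATACTGTA for miR-144-3p and TGCTGCTA for miR-16-5p. miR-122-5p was analysed through its deposited code alone.

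The KO Ago libraries held 198800, 341061 and 147969 reads in the 106382 deposited peaks, and the KO IgG libraries held 42916, 28882 and 24622. Ago reads thus outnumbered IgG reads 7.13 to 1 in the knockout, and 71226 peaks had no KO IgG read. Every read series below is given in the order Ago 3, 12, 13 and then IgG 4, 8, 14, and every ± is an SD over 3 libraries. KO IgG library 4 stood nearest to the Ago libraries, with 21.7% of its reads in coding sequence against 14.7% and 15.6% in the other 2, so shares are also given without it. KO Ago library 12 was the deepest and had the smallest intergenic share, at 12.0%, against 22.1% in library 3.

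The deposited codes of the locus microRNAs were compared between genotypes first, as a check of the labels. Peaks with a 7-mer or longer match of miR-451a held 0.160%, 0.140% and 0.137% of the KO Ago reads, against 1.17%, 1.04% and 0.938% of the WT Ago reads. The WT mean was 7.19 times the KO mean, and the libraries did not overlap (two-sided exact permutation p = 0.1, the smallest that 3 against 3 allows). For miR-144-3p the WT Ago mean was 2.19 times the KO mean, and for miR-144-5p 1.41 times, again without overlap (exact permutation p = 0.1 for both). For miR-16-5p the order was the opposite, with the WT Ago mean at 0.817 times the KO mean (exact permutation p = 0.1). The miR-451a share also differed between the IgG libraries, where the WT mean was 1.99 times the KO mean (exact permutation p = 0.1). So did the miR-144-3p share, at 1.39 times (exact permutation p = 0.1). For miR-144-5p the IgG ratio was 1.51, not below its Ago ratio of 1.41 (exact permutation p = 0.2), so its genotype difference was not particular to the Ago antibody.

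Ago reads in the knockout lay mostly in messenger RNA. Peaks in 3′UTRs made up 26.8%, 36.8% and 30.2% of the KO Ago reads and 17.9%, 14.0% and 17.4% of the KO IgG reads, or 31.3 ± 5.08% against 16.4 ± 2.13%. Coding sequence made up 33.5%, 36.0% and 34.1% of Ago reads and 21.7%, 14.7% and 15.6% of IgG reads. For both classes every Ago library lay above every IgG library, at mean ratios of 1.90 and 1.99. The 5′UTRs held 2.38 ± 0.122% against 1.25 ± 0.248%, and pseudogenes 1.69 ± 0.0965% against 1.06 ± 0.227%, also without overlap.

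Intergenic and intron peaks took larger shares of the IgG reads. Intergenic peaks held 12.0% to 22.1% of the reads in the 3 Ago libraries and 39.1%, 47.3% and 42.8% of the IgG reads, a mean ratio of 0.411. Introns held 10.4 ± 0.938% of Ago reads and 16.8 ± 1.38% of IgG reads, a ratio of 0.616. Exons of long intergenic noncoding RNAs gave a ratio of 0.335 and their introns 0.465, while the flanks upstream and downstream of genes gave 0.767 and 0.775. In each of these classes the 3 Ago libraries lay below the 3 IgG libraries. For each class named so far the two-sided exact permutation test gave p = 0.1, the smallest it allows, and 0.11 after Benjamini-Hochberg adjustment over the 11 classes. The class of miscellaneous transcripts overlapped between the antibodies, at 0.0894 ± 0.00488% against 0.0936 ± 0.0120% (exact permutation p = 0.7). Without IgG library 4 the ratios were 1.99 for 3′UTRs, 2.28 for coding sequence, 0.589 for introns and 0.393 for intergenic peaks.

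**Figure D1:**
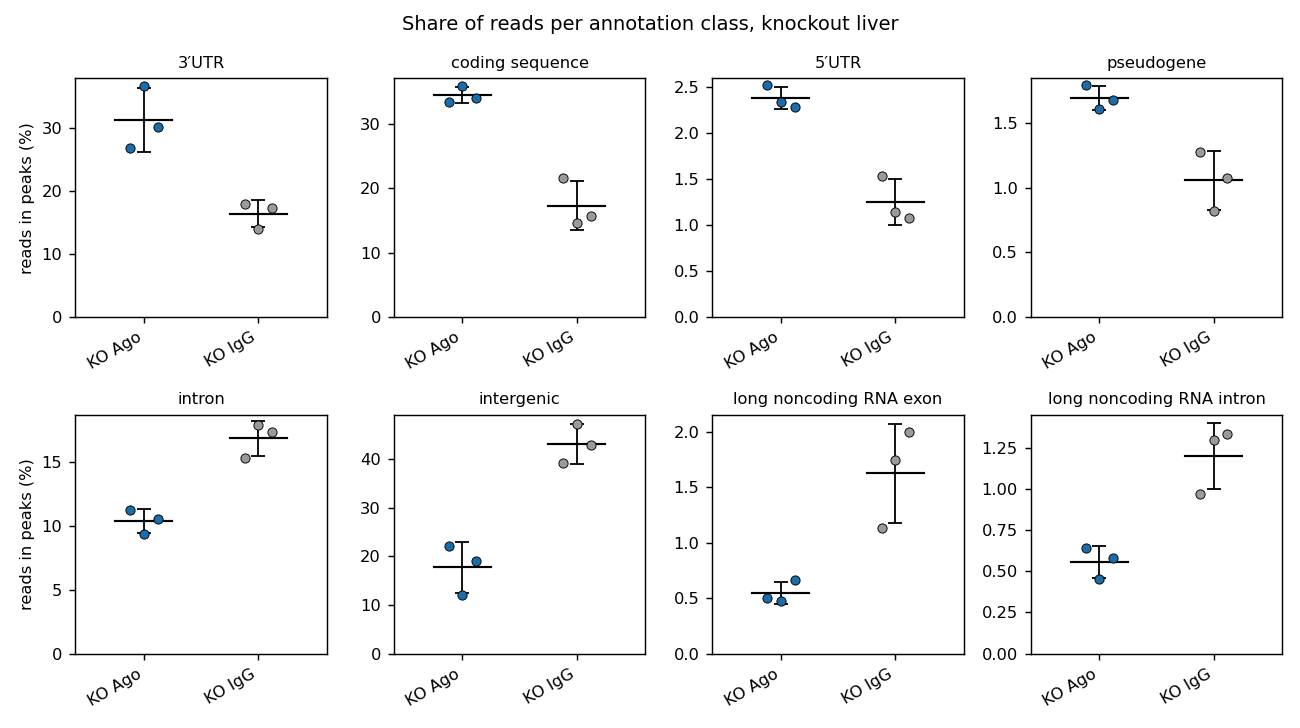
Share of reads in peaks (%, vertical axis) per annotation class in the 3 KO Ago and the 3 KO IgG libraries; each point is a library and the bar is the mean. The Ago libraries hold 26.8% to 36.8% of their reads in 3′UTRs against 14.0% to 17.9% with IgG, and 12.0% to 22.1% in intergenic peaks against 39.1% to 47.3%.

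The same classes separated the antibodies in the wild type, at 1.73 for 3′UTRs, 1.94 for coding sequence and 0.423 for intergenic peaks. The Ago over IgG ratio of no class was shown to differ between genotypes. Exact permutation of the genotype labels within each antibody, over 400 arrangements, gave p between 0.25 and 1 for the 11 classes, and 1 after adjustment for each of them.

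Among the microRNAs that remain in the knockout, the seed classes of miR-16-5p and miR-122-5p were the ones with the largest Ago over IgG ratios of the 6 coded. Peaks with a 7-mer or longer match of miR-16-5p held 5.87%, 6.17% and 5.72% of the KO Ago reads and 3.80%, 1.89% and 2.26% of the KO IgG reads, a ratio of 2.24 that became 2.86 without IgG library 4. Peaks with such a match of miR-122-5p held 1.14%, 1.40% and 1.75% against 0.666%, 0.519% and 0.333%, a ratio of 2.82 (3.36 without library 4). Neither class overlapped between the antibodies (exact permutation p = 0.1, adjusted 0.15 over the 6 microRNAs). Library 13, which had the highest miR-122-5p share, also had the largest share of reads in hepatocyte genes among the KO Ago libraries, at 3.13% against 1.64% and 1.91%. Among the KO IgG libraries the order was not the same. Library 8 had the largest hepatocyte share, at 3.12% against 2.31% in library 4, but the smaller miR-122-5p share of these, at 0.519% against 0.666%. What sets the miR-122-5p share of a library was not tested, and bulk tissue does not separate the number of hepatocytes from their RNA per cell.

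The seed classes of the deleted microRNAs gave smaller ratios. The miR-451a class held 0.160%, 0.140% and 0.137% of the Ago reads and 0.214%, 0.142% and 0.138% of the IgG reads, a ratio of 0.885 with overlapping libraries (exact permutation p = 0.6). That ratio was 1.04 without IgG library 4, so its direction rests on this library. The miR-144-3p class held 1.21 ± 0.111% against 0.857 ± 0.0998%, a ratio of 1.41, and the miR-144-5p class 0.378 ± 0.0202% against 0.245 ± 0.0660%, a ratio of 1.55. Both were without overlap (exact permutation p = 0.1, adjusted 0.15). The miR-21a-5p class, whose microRNA is intact, held 0.372 ± 0.0497% against 0.400 ± 0.0615% and overlapped (exact permutation p = 0.5).

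**Figure D2:**
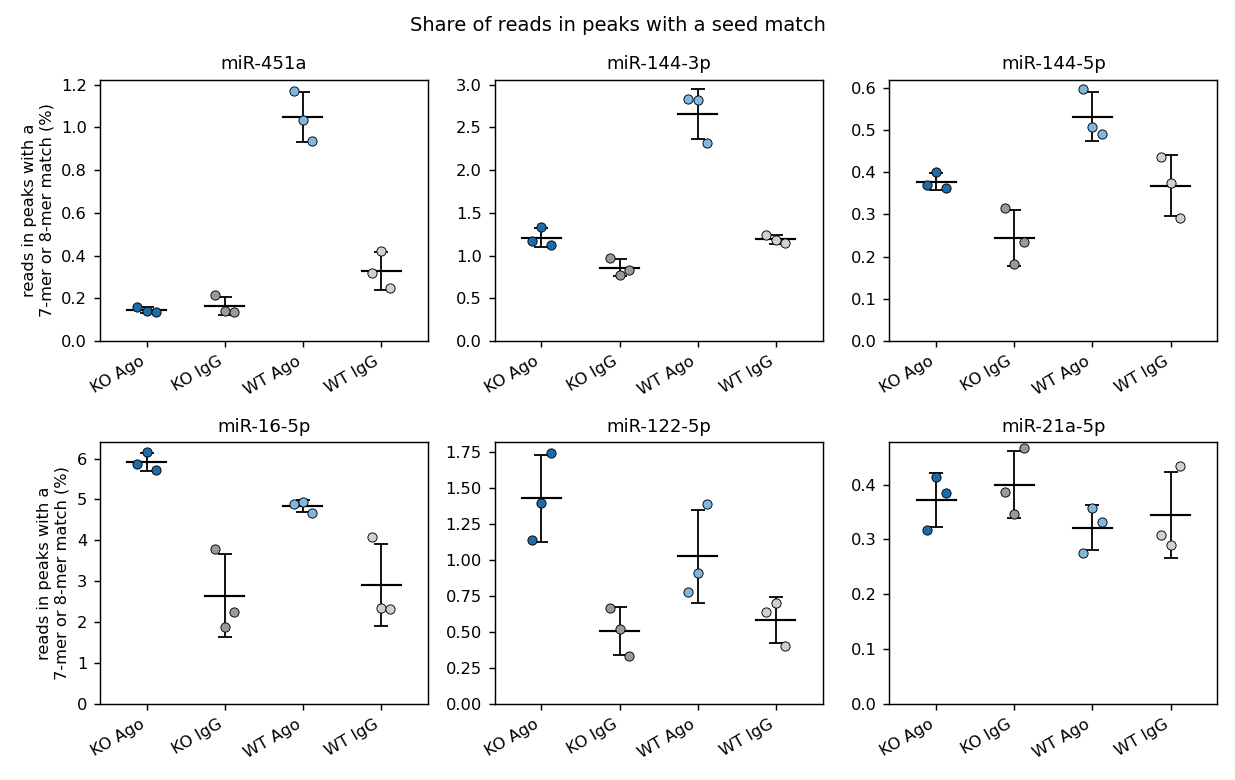
Share of reads (%, vertical axis) in peaks with a 7-mer or 8-mer match of each of the 6 coded microRNAs, by library in the 4 groups; the bar is the mean of 3 libraries. In the knockout the miR-451a class holds 0.137% to 0.160% with Ago and 0.138% to 0.214% with IgG, while the miR-16-5p class holds 5.72% to 6.17% with Ago and 1.89% to 3.80% with IgG.

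Within the miR-16-5p and miR-122-5p classes the ratio differed with the length of the match. For miR-122-5p it was 3.82 for 8-mer matches, 3.07 for 7-mer-m8, 2.36 for 7-mer-A1 and 1.36 for 6-mers. For miR-16-5p the ratios were 2.50, 2.10, 2.75 and 1.82 in the same order. An offset 6-mer gave 1.67 for miR-122-5p and 1.42 for miR-16-5p. In both microRNAs the 8-mer, 7-mer-m8 and 7-mer-A1 classes thus all had larger ratios than the 6-mers. For miR-144-3p, which is deleted, the order was not the same, with 0.953 for 8-mers, 1.65 for 7-mer-m8 and 1.32 for 6-mers. The differences between lengths were not tested, since every length is read from the same libraries.

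The seed classes were also compared within a single annotation class. Within 3′UTR peaks alone, where all peaks together gave 1.90, the ratio was 3.93 for miR-122-5p, 2.59 for miR-16-5p, 2.02 for miR-144-3p, 1.90 for miR-144-5p, 1.84 for miR-21a-5p and 1.45 for miR-451a. Within coding peaks, at 1.99 for all, it was 4.36 for miR-122-5p, 2.60 for miR-16-5p and 1.10 for miR-451a. When shares were taken of the reads in 3′UTR and coding peaks only, miR-122-5p kept a ratio of 2.19 without overlap (exact permutation p = 0.1, adjusted 0.3). On that denominator miR-16-5p overlapped at a ratio of 1.38 (exact permutation p = 0.3), through IgG library 4 at 6.96% against 4.19% and 4.01% in the other 2. The miR-451a class lay below IgG in every library there, at 0.656 (exact permutation p = 0.1), and miR-144-3p and miR-144-5p overlapped at 1.06 and 1.00.

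Single base mismatches to the locus seeds are also coded, and these classes are large. Peaks with a mismatched miR-144-3p seed held 21.95 ± 0.279% of KO Ago reads and 19.1 ± 0.467% of KO IgG reads, without overlap (exact permutation p = 0.1). Those with a mismatched miR-144-5p seed held 9.63 ± 0.149% and 9.68 ± 0.200% (exact permutation p = 0.6). Peaks with a mismatched miR-451a seed held 8.92 ± 0.255% of KO Ago reads and 9.33 ± 0.568% of KO IgG reads (exact permutation p = 0.4). Peaks with no code of any of the 6 microRNAs held 52.0 ± 0.442% of Ago reads and 58.2 ± 1.92% of IgG reads, without overlap (exact permutation p = 0.1). Most KO Ago reads thus lay in peaks with no coded seed match. For none of the 6 seed classes was the Ago over IgG ratio shown to differ between genotypes, at exact permutation p of 0.15 to 0.96 and adjusted p of 0.47 or more. For miR-451a that ratio was 3.19 in the wild type and 0.885 in the knockout. For miR-451a and miR-144-3p the IgG libraries separated by genotype in the same direction as the Ago libraries. With that order this permutation test cannot give a p under 0.1, so it cannot decide the question for these classes.

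Single peaks were then tested with the edgeR quasi-likelihood test. Only 645 peaks had enough reads, and they held 5.28% of the KO Ago reads but 21.4% of the KO IgG reads, so the direction of a peak depends on the scale it is set against. With TMM scaling on the tested peaks, a log2 change of 0 stands for 1.04 Ago reads per IgG read. With all reads in peaks as the library size it stands for 7.13. On the first scale 258 peaks (40% of those tested) were higher in Ago and 150 (23.3%) lower. On the second 28 (4.34%) were higher and 427 (66.2%) lower. All 28 were among the 258, and all 150 among the 427. The scales also gave opposite calls: of the 258 peaks higher on the first scale, 40 were lower and 190 not called on the second. Every tested peak had a KO IgG read. A peak with very few of them passed the filter through its Ago reads alone, and a peak with very few Ago reads through its IgG reads alone. The high share of calls in both directions is therefore partly set by the filter. Leaving out Ago library 3, 12 or 13 left 59, 56 or 46 higher and 15, 8 or 9 lower peaks on the first scale. Leaving out IgG library 4, 8 or 14, with more peaks tested, gave 697, 493 or 545 higher and 423, 413 or 464 lower.

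The calls differed between annotation classes on both scales. On the tested-peak scale 70 of 79 3′UTR peaks, 95 of 101 coding peaks and 17 of 18 5′UTR peaks were higher, and a single 3′UTR peak was lower. Of 313 intergenic peaks 39 were higher and 119 lower, and of 87 intron peaks 23 were higher and 19 lower. Of 22 peaks in exons of long noncoding RNAs 6 were higher and 1 lower, and of 10 in their introns 1 was higher and 8 lower. On the scale of all reads, 3′UTR peaks split into 11 higher and 13 lower, coding peaks into 9 higher and 12 lower and 5′UTR peaks into 4 higher and 1 lower. On that scale 298 of the 313 intergenic peaks, 67 of the 87 intron peaks and 16 of the 22 long noncoding exon peaks were lower. All 19 tested peaks with a 7-mer or longer match of miR-16-5p were higher on the first scale, with 1 of them higher on the second. Whatever their code, 88.6% of tested 3′UTR peaks, 94.1% of coding and 94.4% of 5′UTR peaks were higher on the first scale. The miR-16-5p peaks were thus not set apart from messenger RNA peaks in general. Of 6 such peaks of miR-122-5p 3 were higher and 1 lower on the first scale, and 1 higher and 3 lower on the second. Of 385 tested peaks without a code, intergenic and intron peaks included, 119 were higher and 100 lower on the first scale.

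**Figure D3:**
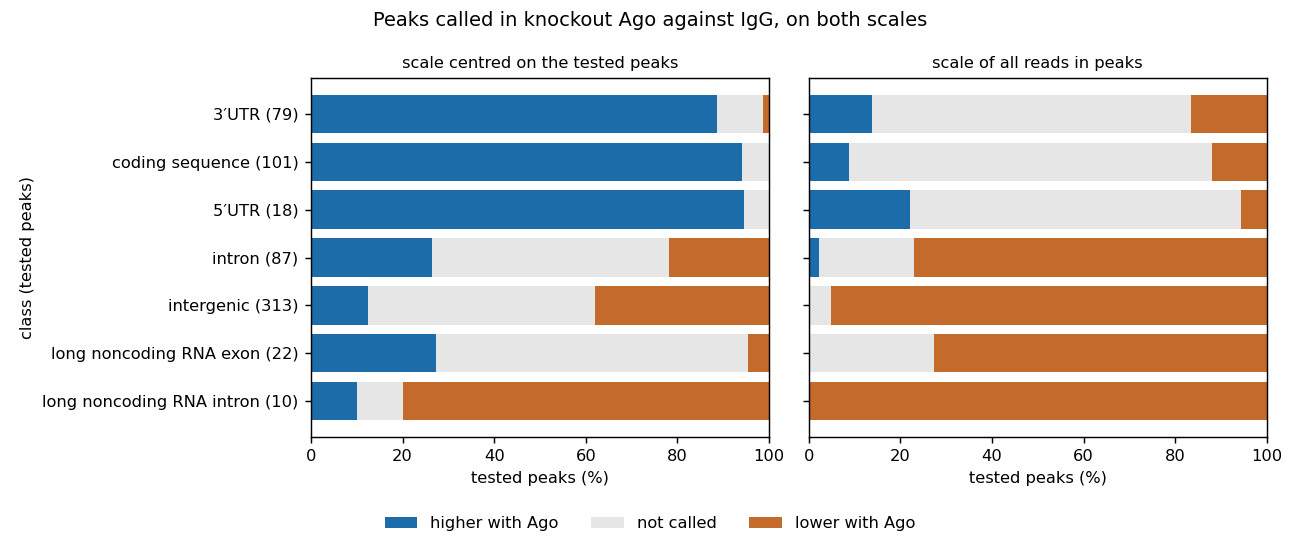
Percentage of tested peaks (horizontal axis) that edgeR called higher, lower or neither in KO Ago against IgG, per annotation class, on the scale centred on the tested peaks (left) and on that of all reads in peaks (right); the number tested is in parentheses. Of 79 tested 3′UTR peaks 70 are higher on the left and 11 on the right, and of 313 intergenic peaks 119 are lower on the left and 298 on the right.

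Among the peaks higher on both scales were one in Slc40a1 and one in Alas2, genes of iron and haem metabolism. Neither was called as a whole gene, and none of the 23 tested iron and haem genes was higher. The 3′UTR peak of Slc40a1, which encodes the iron exporter ferroportin, lay at chr1:45908297-45908329 on the minus strand (mm10) and had 22, 37 and 20 Ago reads against 1, 0 and 0 with IgG. That was 108.5 to 135 CPM (reads scaled to the total of reads in peaks of each library) with Ago and 0 to 23.3 with IgG. Over the summed libraries the Ago share was 11.1 times the IgG share of reads (95% interval 1.93 to 443, counting error only), with a log2 of 3.39 on the scale of all reads (edgeR adjusted p = 0.0033). A 3′UTR peak of Alas2, the first enzyme of haem synthesis in erythroid cells, had 26, 64 and 34 against 2, 3 and 1 reads (2.90 times, interval 1.29 to 8.05, edgeR adjusted p = 0.0499). An intron peak of the membrane skeleton gene Add2 had 26, 43 and 24 against 3, 1 and 0. In CPM the Ago and IgG libraries did not overlap at the Alas2 peak (131 to 229.8 against 40.6 to 104) or the Add2 peak (126 to 162 against 0 to 69.9). At the Slc40a1, Alas2 and Add2 peaks no IgG library reached the level of the filter, so every Ago library had to. The lack of overlap was thus fixed by the filter. The Slc40a1 peak had 28, 37 and 19 reads in WT Ago and 5, 0 and 2 in WT IgG, and its ratio was not shown to differ between genotypes (edgeR adjusted p = 0.998).

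Peaks of 2 hepatocyte genes, Serpina6 and Apob, were also higher on both scales. Serpina6, which encodes corticosteroid-binding globulin, had a coding peak at chr12:103648585-103648620 on the minus strand with a 7-mer-m8 match of miR-122-5p. It had 23, 46 and 21 Ago reads against 1, 0 and 0 (12.6 times, interval 2.21 to 504, log2 3.55 on all reads, edgeR adjusted p = 0.00175). A coding peak of Apob, the structural protein of lipoproteins, had 25, 41 and 35 against 2, 1 and 2 reads, a ratio of 2.83 (interval 1.17 to 8.91). Kng1, which encodes kininogen, had a coding peak with an 8-mer match of miR-122-5p and 22, 49 and 31 against 5, 0 and 3 reads. It was higher on the tested-peak scale (edgeR adjusted p = 0.00181) but not on that of all reads (0.231). In CPM the Kng1 peak overlapped between the antibodies, at 111 to 209.5 with Ago and 0 to 122 with IgG, while that of Apob did not, at 120.2 to 236.5 against 34.6 to 81.2. The Apob peak passed the filter through its Ago libraries alone, so its lack of overlap was fixed by the filter.

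Other higher peaks lay in genes of varied function. The 3′UTR peak of Mrfap1 had 28, 56 and 27 reads against 1, 0 and 0, the largest ratio among the peaks named by smallest p, at 15.6 (interval 2.74 to 620). The coding peak of Adcy6, an adenylyl cyclase, had 27, 67 and 32 against 1, 1 and 1 reads (5.89 times, interval 1.97 to 28.9). A 3′UTR peak of Cdk1, the mitotic kinase, had 28, 50 and 18 against 2, 1 and 0. Histone messages contributed 5′UTR peaks of Hist2h3c2 and Hist2h3c1, each with 43, 46 and 23 against 2, 0 and 0 reads. These 2 genes are near-identical copies with the same KO reads, so which of them the reads came from is uncertain.

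Peaks with a miR-16-5p match were led by Pim1, a kinase gene, whose 3′UTR peak at chr17:29495159-29495221 had 50, 90 and 49 Ago reads against 7, 3 and 1. It held 2.41 times the IgG share (interval 1.32 to 4.91) and was higher on the tested-peak scale (log2 4.03, edgeR adjusted p = 0.000746) but not on that of all reads (log2 1.34, 0.0646). A coding peak of the lysosomal channel gene Tpcn1 had 35, 45 and 32 against 4, 2 and 3, and a 3′UTR peak of Aldoa, the glycolytic aldolase, had 32, 53 and 32 against 4, 3 and 3. The 3′UTR peak of Mtmr3, a lipid phosphatase gene, had 28, 54 and 27 against 3, 0 and 2 reads and was the miR-16-5p peak higher on both scales (edgeR adjusted p = 0.0426 on all reads). Of the locus microRNAs, miR-451a had a single tested peak, between genes on chromosome 2, with 21, 21 and 16 against 8, 6 and 5 reads. Its log2 was 1.53 on the tested-peak scale and -1.15 on that of all reads, where it was not called (edgeR adjusted p = 0.0603). The call on the first scale was lost without IgG library 4, 8 or 14 (edgeR adjusted p of 0.385, 0.716 and 0.772). The 2 tested miR-144-5p peaks, in the coding sequences of Alb and Anp32b, had 19, 36 and 26 against 2, 5 and 3 reads and 38, 34 and 25 against 8, 3 and 0. Both were higher on the tested-peak scale, that of Anp32b not without IgG library 14 (edgeR adjusted p = 0.0657). On the scale of all reads neither was called, at log2 0.21 for Alb and 0.45 for Anp32b (edgeR adjusted p of 0.775 and 0.527).

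The scale decided the call for some abundant RNAs. The largest H19 peak, in a noncoding RNA of the imprinted Igf2 region, had 137 to 173 reads in the 3 Ago libraries against 36, 21 and 12 with IgG. It was higher on the tested-peak scale (log2 2.71, edgeR adjusted p = 0.000746), while its share of reads was 0.922 of that with IgG (interval 0.715 to 1.21). That call was lost without IgG library 8 (edgeR adjusted p = 0.066). The peaks with the smallest p among the lower ones were all in the intergenic class. The peak at chr13:44869713-44869732 had 2, 3 and 2 Ago reads against 16, 19 and 10, that at chr11:106725298-106725333 had 1, 1 and 0 against 14, 7 and 8, and that at chr12:99645530-99645570 had 0, 0 and 1 against 17, 17 and 4. Their ratios were 0.0218, 0.00967 and 0.00369 of the IgG share. These peaks passed the filter through their IgG reads alone, so a low ratio was partly set by the filter. The peak with the most KO IgG reads, in an intron of Cdk8, had 114, 109 and 78 against 251, 263 and 53 reads. Library 14 had far fewer of them than the other IgG libraries, and the peak was not called on the tested-peak scale (log2 -0.90, edgeR adjusted p = 0.0717). It was lower on the scale of all reads (log2 -3.60, 5.25e-10), and on the first scale without IgG library 4, 8 or 14 (0.00804, 0.00787 and 3.24e-21), but stayed uncalled without any 1 Ago library (0.566 to 0.703). The 10 peaks with the most IgG reads together held 1.65% to 3.87% of the IgG reads and 0.187% to 0.316% of the Ago reads.

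Since no peak without KO IgG reads passed the filter of the test, peaks were also counted that had 5 or more reads in each KO Ago library and none in KO IgG. There were 533 of them (0.501% of 106382), in 448 genes, and none was among the tested peaks. Of 3′UTR peaks 229 met the rule (0.768%), of coding peaks 209 (0.583%), of intron peaks 37 (0.299%) and of intergenic peaks 32 (0.144%). By seed, 67 of 4299 miR-16-5p peaks (1.56%) and 19 of 1018 miR-122-5p peaks (1.87%) met it. For the locus the numbers were 0 of 544 for miR-451a, 6 of 1768 for miR-144-3p (0.339%) and 1 of 430 for miR-144-5p (0.233%). The same rule in the wild type, whose libraries are deeper, was met by 1250 peaks (1.18%), among them 33 of miR-451a and 71 of miR-144-3p. Of the 533 peaks 66 met it in both genotypes.

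The largest of these peaks, chosen after their values were seen, were spread over many functions. Fam63b, a deubiquitinase gene, had a 3′UTR peak with 14, 70 and 19 Ago reads, at least 4.81-fold above a floor of 3 IgG reads over the group. Ncapd3, a condensin subunit, had a coding peak with a 7-mer-m8 match of miR-16-5p and 17, 47 and 16 reads (at least 3.74-fold). An intron peak of Ccnd3, the cyclin that acts in erythroid division, had 17, 38 and 17 reads. Gldc, a glycine cleavage enzyme of hepatocytes, had a coding peak with a 7-mer-m8 match of miR-122-5p and 18, 26 and 19 reads (at least 2.94-fold), and Adipor1, a receptor gene, had one with a miR-16-5p match and 6, 39 and 12 reads. Library 12, the deepest, had the most reads in each of these.

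Reads were next summed over all peaks of a gene. Of 1988 genes tested with edgeR, 43 (2.16%) were higher in KO Ago than in KO IgG and 207 (10.4%) lower. Here a log2 of 0 stands for 11.7 Ago reads per IgG read, so an uncalled gene can still have many more Ago reads. As with peaks, a gene with few IgG reads passed the filter through its Ago reads, and a gene with few Ago reads through IgG, so such genes had to differ. Of the 43 higher genes 5 had no IgG read, and the median was 2 IgG reads, against 22 (9 to 876) for the 207 lower genes. With all reads as library size 71 genes (3.57%) were higher and 181 (9.1%) lower. For genes, here and below, these are the reads in peaks with a gene name, so intergenic peaks are left out. All 43 were among the 71, and all 181 among the 207. Without Ago library 3, 12 or 13 the counts were 22, 4 or 20 higher and 91, 79 or 98 lower. Without IgG library 4, 8 or 14 they were 145, 26 or 23 higher and 271, 173 or 209 lower. The number of higher genes moved most without Ago library 12 and without IgG library 4, where 3523 genes were tested.

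**Figure D4:**
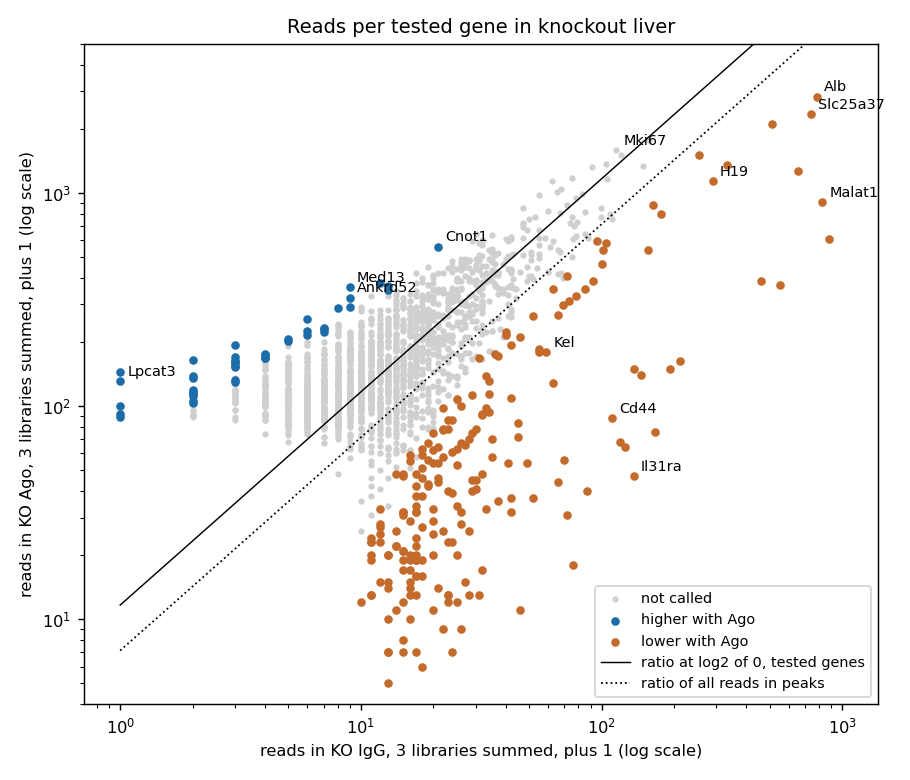
Reads of 1979 of the 1988 tested genes, without names turned into dates, in KO IgG (horizontal axis) and KO Ago (vertical axis). Reads are summed over 3 libraries plus 1, on log scales, and coloured by the edgeR call. The solid line marks the Ago to IgG ratio of 11.7 at a log2 of 0 with TMM scaling. The dotted line marks the ratio of 7.13 of all reads in peaks, intergenic ones included, which neither gene scale uses. The 43 higher genes have 0 to 20 IgG reads, and the 207 lower genes include Alb, Slc25a37 and Malat1, at the right.

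The higher genes had 0 to 20 IgG reads, the most being those of Cnot1. Lpcat3, a lysophospholipid acyltransferase gene (chromosome 6, 124663094 to 124704716), had the smallest p among them, with 30, 73 and 27 Ago reads against 0, 0 and 0. It was at least 6.07-fold above the floor of 3 IgG reads over the group (edgeR adjusted p = 0.00374). Med13, a subunit of the Mediator kinase module, had 78, 214 and 69 against 6, 1 and 1 (6.33 times the IgG share, interval 3.18 to 14.8, log2 1.91 ± 0.49 SE, edgeR adjusted p = 0.00668). Of its reads 232 with Ago and 7 with IgG lay in the 3′UTR. Asxl1, a Polycomb-linked chromatin gene, had 24, 100 and 19 against 0, 0 and 0 (at least 6.68-fold, 0.00781), and Dmtf1, a Myb-like transcription factor gene, 27, 49 and 23 against 0, 0 and 0 (at least 4.63-fold, 0.0112). The endocytic scaffold gene Itsn2 had 38, 102 and 24 against 1, 0 and 0 (edgeR adjusted p = 0.00822). These 5 genes kept the call in every alternative that gave them a value. Med13 had a value in 13 alternatives, Lpcat3, Asxl1 and Dmtf1 in 10 and Itsn2 in 9. With an Ago library left out 589 to 615 genes were tested, and of these 5 genes only Med13 was among them. Lpcat3, Asxl1, Dmtf1 and Itsn2 passed the filter through their Ago reads alone. In the filtered alternatives their kept call was therefore largely set by the filter.

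The genes next in order of p lost the call in 1 or more alternatives. Nrbp1, a pseudokinase gene, had 24, 48 and 19 against 0, 0 and 0 (at least 4.25-fold), and lost the call without IgG library 4 (edgeR adjusted p = 0.0597). Ttc17 had 27, 42 and 19 against 0, 0 and 0, with 65 of its 88 Ago reads in introns, and Copg1, a COPI coat subunit, had 46, 74 and 39 against 0, 1 and 1. Both lost the call without that library, at 0.0622 and 0.105. Nrbp1, Ttc17 and Copg1 had no read in IgG library 4, and more genes were tested without it. The chromatin remodeller gene Chd1 had 44, 122 and 26 against 0, 0 and 2, and the zinc finger gene Rreb1 29, 80 and 26 against 1, 0 and 0, all in its 3′UTR. Chd1 lost the call without IgG library 4 (0.0788) or 8 (0.0547), and Rreb1 without IgG library 8 (0.0674) or 14 (0.0558). The folliculin-interacting gene Fnip2 had 39, 91 and 39 against 2, 0 and 0, Fem1c, a receptor of a ubiquitin ligase, 45, 90 and 27 against 2, 0 and 0, and Dmxl1, which acts in proton pump assembly, 54, 167 and 35 against 3, 1 and 1. These 3 lost the call without IgG library 8 (edgeR adjusted p of 0.0652, 0.0832 and 0.0632) or 14 (0.0513, 0.0669 and 0.0525). Their log2 values there were 1.96 to 2.50, against 2.83, 2.74 and 2.02 with all libraries. Ypel4 had 39, 83 and 40 against 1, 1 and 0, and was lost without IgG library 14 (0.0567).

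Messages of proteins that act with Ago gave calls in both directions. Ankrd52, whose protein directs a phosphatase to Ago2, had 80, 180 and 62 Ago reads against 4, 4 and 0 (5.64 times, interval 2.83 to 13.2, edgeR adjusted p = 0.0182, and 0.0964 without IgG library 14). Cnot1, the scaffold of CCR4-NOT, had 128, 332 and 98 against 12, 7 and 1 (3.91 times, log2 1.21 ± 0.41 SE, adjusted p = 0.0485). Its call was lost without Ago library 12 (0.0656) or IgG library 14 (0.21). In the other direction Pabpc1, the poly(A)-binding protein gene, had 114, 267 and 84 against 37, 46 and 16 (log2 -1.42, edgeR adjusted p = 0.00284, and 0.207 without IgG library 8). Of the 11 tested members of the Ago pathway list, which does not hold Ankrd52, Cnot1 was higher and Pabpc1 lower (9.09% each, against 2.16% and 10.4% of all tested genes), with a median log2 of 0.42 against 0.22 over all tested genes. Ago2 itself had 187, 420 and 150 against 29, 7 and 13 reads, Tnrc6b 321, 761 and 244 against 52, 15 and 23, and Dicer1 53, 117 and 33 against 7, 3 and 7. None of these 3 was called.

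The lower genes were mostly read in introns. Il31ra, a cytokine receptor gene, had 18, 16 and 12 Ago reads against 62, 54 and 19, all in introns (log2 -5.02 ± 0.39 SE, edgeR adjusted p = 2.25e-11). Kcnip1, a potassium channel partner, had 7, 6 and 4 against 32, 34 and 9, also all in introns (log2 -5.63, 4.71e-11). Cd44, an adhesion receptor gene, had 23, 44 and 20 against 39, 47 and 23 (log2 -3.91), of which 43 Ago and 107 IgG reads lay in 1 intron peak. Its 3′UTR had 27 Ago reads and 1 IgG read. For 126 of the 207 lower genes (60.9%) most IgG reads lay in introns, against 311 of the 1988 tested genes (15.6%). For 41 of the 43 higher genes (95.3%) most Ago reads lay in UTRs or coding sequence, against 1695 of all tested (85.3%). The 10 lower genes with the smallest p kept the call in all 120 alternative values. Those with few Ago reads, such as Il31ra and Kcnip1, passed the filter through IgG alone. In the filtered alternatives their kept call was therefore largely set by the filter.

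When only UTR and coding peaks were summed, 6 of 1589 genes (0.378%) were higher and 57 (3.59%) lower. Lpcat3, Asxl1, Dmtf1, Med13 and Nrbp1 were called higher in both sums, and Zfp652, a zinc finger gene with 23, 71 and 19 against 0, 0 and 0 reads, in this one. Of the 207 lower genes 53 were tested this way and 47 were called. Lars2, a mitochondrial leucyl-tRNA synthetase gene, had 143, 154 and 90 Ago reads against 172, 202 and 84 there (log2 -3.98, edgeR adjusted p = 5.17e-13), and mt-Co1, a mitochondrially encoded cytochrome oxidase subunit, 17, 38 and 16 against 13, 11 and 20 (log2 -3.10). Both were chosen after their values were seen.

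**Figure D5:**
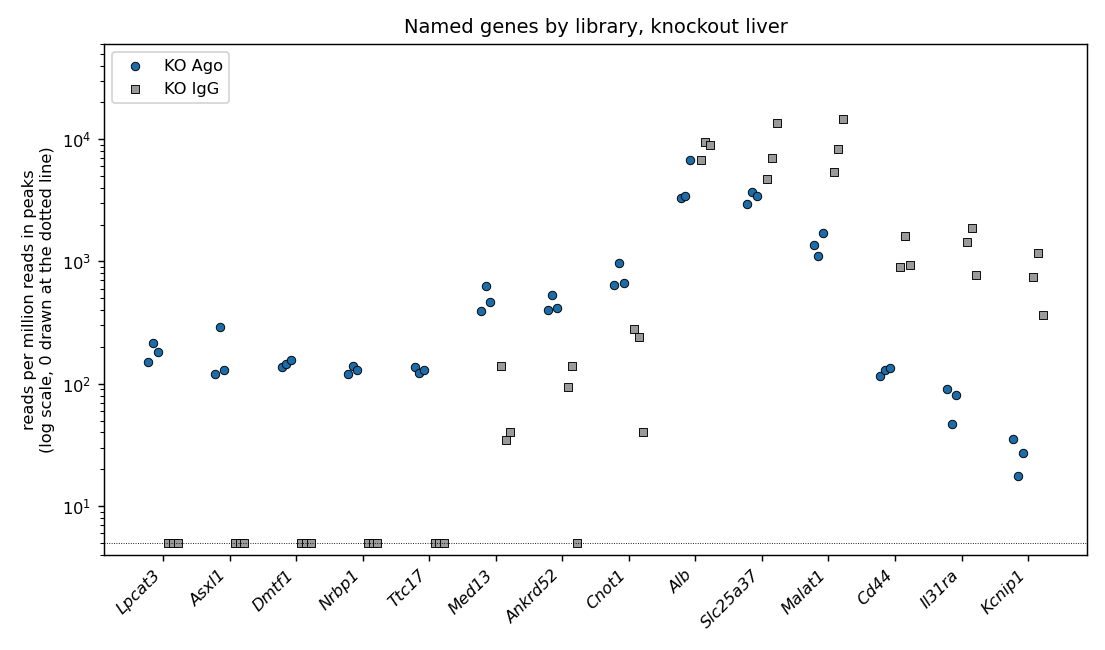
CPM over the reads in peaks (vertical axis, log scale, 0 drawn at the dotted line) of 14 named genes in each KO Ago and KO IgG library. Lpcat3, Asxl1, Dmtf1, Nrbp1 and Ttc17 have 0 reads in all 3 IgG libraries, and Malat1, Cd44, Il31ra and Kcnip1 have every IgG library above every Ago library. Il31ra and Kcnip1 passed the filter through IgG alone, and the genes with 0 IgG reads through Ago alone, so their separation was set by the filter.

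Abundant noncoding RNAs were lower in KO Ago. All 4 tested of the 16 listed were called lower (100%, against 10.4% of all tested genes), with a median log2 of -2.47. Malat1, a nuclear RNA, had 273, 375 and 254 Ago reads against 230, 238 and 357 (0.153 of the IgG share, log2 -3.43 ± 0.48 SE, edgeR adjusted p = 1.94e-06), and every IgG library exceeded every Ago library in share. Meg3 had a log2 of -2.53, Gas5 of -2.41 and H19 of -1.46. The call of Gas5 was lost without IgG library 14 (edgeR adjusted p = 0.0597), and that of H19 without Ago library 3 or 12 or IgG library 8 (0.105, 0.146 and 0.113).

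Of 34 tested erythroid genes 4 were lower (11.8%, near the 10.4% of all tested genes) and none higher, with a median log2 of -0.18. With all reads as library size 3 were lower. The list held 2.43 ± 0.197% of KO Ago reads and 2.64 ± 0.635% of KO IgG reads, and the libraries overlapped (exact permutation p = 0.9). Slc25a37, the mitochondrial iron importer mitoferrin 1, had 587, 1249 and 509 Ago reads against 201, 201 and 335 (log2 -2.02 ± 0.45 SE, edgeR adjusted p = 0.00157). Its introns held 864 Ago and 507 IgG reads, and its 3′UTR 1171 and 202. The call was lost without Ago library 3 (0.0817) or 12 (0.0767). Tfrc, the transferrin receptor, had 241, 407 and 152 against 62, 57 and 57 (log2 -1.43), and the blood group gene Kel 60, 88 and 30 against 24, 11 and 23 (log2 -1.93). Slc4a1, the anion exchanger of red cells, had 431, 790 and 282 against 97, 82 and 74 and barely passed (log2 -1.05, edgeR adjusted p = 0.0478). Its call was lost without any one of Ago libraries 3, 12 and 13 or IgG libraries 8 and 14, at edgeR adjusted p of 0.126 to 0.214. The globin genes, which define erythroid cells, had no peak in the table used here, nor did Epb41, Epb42 and Ahsp.

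Of 21 tested hepatocyte genes 6 were lower (28.6%, against 10.4% of all tested genes) and none higher, with a median log2 of -0.57. With all reads as library size 4 were lower. Alb, the serum albumin gene, had 660, 1162 and 1004 Ago reads against 288, 272 and 222 (log2 -1.61 ± 0.46 SE, edgeR adjusted p = 0.0148, and 0.249 or 0.253 without Ago library 3 or 12). Afp, Trf, Ttr, Ahsg and Ambp, all secreted liver proteins, had log2 values of -1.42, -1.42, -1.34, -1.09 and -1.43 and were called lower. Without Ago library 12 or IgG library 8 the calls of Afp (edgeR adjusted p of 0.251 and 0.0813), Trf (0.213 and 0.207) and Ttr (0.140 and 0.143) were lost. Those of Afp and Trf were also lost without Ago library 3 (0.246 and 0.125), and those of Afp and Ttr without IgG library 14 (0.0539 and 0.0587). Apob, with 352, 900 and 521 against 60, 49 and 47 reads, Serpina6 and Kng1 were not called as whole genes, although peaks of theirs were higher. As a share of reads in peaks, hepatocyte genes held 1.64%, 1.91% and 3.13% with Ago and 2.31%, 3.12% and 2.69% with IgG, which overlapped (exact permutation p = 0.5).

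Markers of other cell types were near the limit of the data. Of macrophage genes 2 were tested, of granulocyte genes 6, of progenitor genes 3 and of endothelial and stellate genes 1, and none was called. No megakaryocyte or B cell gene had enough reads. Kit, the stem cell factor receptor, had 57, 116 and 46 against 6, 2 and 0 reads (log2 1.24, edgeR adjusted p = 0.141), and the myeloid enzyme gene Mpo 83, 153 and 61 against 13, 14 and 4 (log2 -0.29).

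Genes known as targets of particular microRNAs were not called as whole genes in any of the 4 target lists with TMM scaling. With all reads as library size 1 miR-16 target was higher. The 11 tested miR-16 targets had a median log2 of 0.87, and 9 of them were above 0, where the median of all tested genes was 0.22. Anln, a cytokinesis gene, came nearest, with 52, 149 and 40 against 2, 2 and 3 reads (log2 1.47, edgeR adjusted p = 0.0729), and Ccnd3 had 77, 182 and 76 against 9, 4 and 2 (log2 0.94, 0.144). In the list of miR-144 and miR-451 targets, the 9 tested genes had a median of 0.26, close to the 0.22 of all tested genes. Among them Ywhaz, a 14-3-3 gene, had 50, 102 and 45 against 11, 9 and 10 (log2 -0.83). The 5 miR-122 targets had a median of 0.81, and the 9 let-7 targets one of -0.07.

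Proliferation genes, of which fetal liver has many, gave scattered calls. None of 32 tested mitosis genes was called, although Mki67 had 317, 1019 and 253 Ago reads against 50, 35 and 29. With all reads as library size 1 mitosis gene was higher. Of 18 DNA replication genes Pold3, a DNA polymerase delta subunit, was higher with 34, 65 and 30 against 1, 1 and 0 (log2 2.45, edgeR adjusted p = 0.0474). That call was lost without any one of IgG libraries 4, 8 and 14 (0.0908, 0.0677 and 0.142). Pola2, the primase-associated subunit, was lower with 7, 13 and 4 against 5, 10 and 4, where 1 intron peak held 3 Ago and 19 IgG reads and coding peaks 21 and 0. Pold3 and Pola2 each made up 5.56% of the tested list, against 2.16% higher and 10.4% lower of all tested genes. Of 34 histone genes Hist2h3c2 was higher (edgeR adjusted p = 0.026), and Hist1h4f and Hist1h4d lower, shares of 2.94% and 5.88% against 2.16% and 10.4% of all tested genes. Reads of such copies may be split between genes. The call of Hist1h4f was lost without IgG library 4 (edgeR adjusted p = 0.199), that of Hist2h3c2 without IgG library 8 or 14 (0.0931 and 0.0778), and that of Hist1h4d without any one of the 6 libraries (0.108 to 0.226). Of 18 translation factor genes Eef1a1 was lower (5.56%, against 10.4% of all tested genes). Its log2 was -1.36, and the call was lost without Ago library 12 or IgG library 8 (edgeR adjusted p of 0.0776 and 0.0612). Of 13 ribosomal protein genes Rps9 was lower (7.69%, against the same 10.4%). Its log2 was -1.53, and the call was lost without IgG library 14 (edgeR adjusted p = 0.500). Of 23 iron and haem genes Slc25a37, Tfrc and Trf were lower (13.0%, near the 10.4% of all tested genes).

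The wild type gave the same kind of split with more genes tested. There 52 of 2603 genes (2%) were higher in Ago than IgG and 339 (13%) lower. Of the 43 genes higher in the knockout 2 were also higher in the wild type, which is 4.65% of the KO and 3.85% of the WT list. Of those 43, 39 were tested in the wild type and 38 had a log2 above 0 there. The median log2 over all 2603 genes tested in the wild type, at 0.13, was above 0 as well. Of the 207 lower genes 169 were also lower in the wild type, 81.6% of the KO and 49.9% of the WT list. Med13 had 109, 228 and 70 reads in WT Ago against 11, 4 and 5 in WT IgG and a WT log2 of 0.40 against 1.91 in the knockout. Its ratio was not shown to differ between genotypes (edgeR interaction adjusted p = 0.911).

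No gene and no peak passed the test of the interaction of genotype and antibody. It called 0 of 2654 genes (0%) and 0 of 1364 peaks (0%) with edgeR, and DESeq2 called 0 of each. At an unadjusted p under 0.05 edgeR gave 55 genes with a larger and 66 with a smaller Ago over IgG ratio in the knockout, and 18 and 36 peaks. DESeq2 gave 67 and 83 genes, and 4 and 32 peaks. The peaks with the smallest p included a 3′UTR peak of Tnrc6b, a partner of Ago, with a mismatched miR-451a seed at position 7. It had 2, 1 and 1 Ago reads against 2, 3 and 0 IgG reads in the knockout, and 39, 57 and 21 against 1, 4 and 3 in the wild type (unadjusted p = 0.00409, edgeR adjusted p = 0.837). A coding peak of Tfrc had 6, 7 and 2 against 1, 4 and 1 in the knockout and 31, 54 and 26 against 0, 2 and 2 in the wild type (unadjusted p = 0.00856). Among genes, the mitotic motor gene Kif11 had 61, 114 and 36 against 10, 5 and 6 in the knockout and 231, 419 and 127 against 7, 7 and 3 in the wild type (unadjusted p = 0.00169). None of these 3 passed after adjustment. Elmsan1, a gene of a histone deacetylase complex, ran the other way, with 132, 229 and 119 against 13, 9 and 1 in the knockout and 85, 185 and 78 against 14, 17 and 11 in the wild type (unadjusted p = 0.00255).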

How the data were processed

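Ago HITS-CLIP libraries of KO liver (3 Ago, 3 IgG) were compared, with the 6 WT libraries beside them. The submitters' processing notes name limma, bedtools, STAR, cutadapt and build mm10, with neither roles nor versions. Per the deposited column description, the authors called peaks on the pooled Ago libraries, and the counts are raw reads overlapping a peak by at least 16 bases. The deposited seed match code is a score of 8 (offset 6-mer), 11 (6-mer), 12 (7-mer-A1), 13 (7-mer-m8) or 14 (8-mer), or 2 to 7 for a mismatch at that position. Sites read with IgG alone are therefore not measured. Coordinates are as deposited, and the sources used here do not say whether they count from 0 or 1.

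Counts per peak and per gene (12102 names, of which 11136 matched a RefSeq GRCm38.p6 symbol, 513 a synonym and 453 neither; 332 peaks under 15 names turned into dates were kept but not named) were tested with edgeR 4.0.16 (R 4.3.3), quasi-likelihood test, TMM scaling, filterByExpr (minimum count 10, total 15), Benjamini-Hochberg over all tested, threshold 0.05. The test was also run on simulated data, the outcome of which is not given here. Shares of reads were compared by two-sided exact permutation tests, and the genotype difference by permuting genotype labels within antibody. Ratio intervals are exact at 95%. They and the floor of 3 reads over a group cover counting error only; the labels name no molecular identifiers.

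Genes were named by smallest p: 15 higher and 10 lower genes, 10 higher and 5 lower peaks, up to 2 peaks per class and 3 per microRNA, and up to 4 genes per list of 20 lists. The comparison, the lists and this rule were chosen with earlier results of these data known. The scale of all reads, the share among 3′UTR and coding reads, the shares without IgG library 4, the peaks without IgG reads and the peaks higher on both scales were added after the data were seen. Other alternatives were library size without TMM, no filter, DESeq2 1.42.0, voom with limma 3.58.1, leaving out each library, leaving out 186 peaks of equal counts, matches of 6 bases, leaving out the 10 largest peaks, and sums over UTR and coding peaks.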

Additional observations from a re-analysis of the deposited data

How the results depend on the processing

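Counts of calls in the knockout moved with the scale, the filter and single libraries. Peaks were 258 higher and 150 lower. They became 28 higher and 427 lower with all reads as library size, 315 lower with library size alone, 62 lower with DESeq2 and 1865 higher without a filter. Leaving out a library gave 46 to 697 higher and 8 to 464 lower. Genes were 43 higher and 207 lower. For genes, all reads as library size left out those in intergenic peaks. The higher genes became 121 with library size alone, 71 with all reads, 285 without a filter, 95 with voom and 6 on UTR and coding peaks, where 57 were lower. Leaving out a library gave 4 to 145 higher and 79 to 271 lower. In the wild type the 52 higher genes became 160, 131, 31 and 491 with library size alone, all reads, DESeq2 and no filter, and 3 to 153 without a library, with 64 to 372 lower. The interaction tests called 0 in every alternative run.

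Differences in seed share, in percentage points, moved when 6-mers were counted too, to 0.744 for miR-144-3p (0.355 otherwise), 0.226 for miR-144-5p (0.133), 4.47 for miR-16-5p (3.27) and 0.101 for miR-21a-5p (-0.0277). As a share of 3′UTR and coding reads they were -0.0820 for miR-451a (-0.0190 otherwise), 0.0699 for miR-144-3p, 0.000565 for miR-144-5p and 1.90 for miR-16-5p. Leaving out 1 library moved the miR-451a difference between -0.0324 and 0.00575 and that of miR-21a-5p between -0.0546 and 0.00579. The Ago minus IgG difference of each annotation class moved by less than 1 SD, the larger of its Ago and IgG SDs. For coding sequence it went from 17.2 to as much as 19.4 points without 1 library, where the Ago SD was 1.30 and the IgG SD 3.81. That of miscellaneous transcripts changed sign, at -0.0102 to 0.00185. On the scale of all reads the log2 of 155 of the 645 tested peaks turned from positive to negative, among them the peak on chromosome 2 with a miR-451a match (-1.15), the Cpt2 intron peak (-2.16), an intergenic peak with a miR-21a-5p match on chromosome 8 (-2.34) and one on chromosome 6 (-2.28, with -0.93 to 1.09 when 1 library was left out, the lowest without KO IgG library 14). Peaks with reads in each KO Ago library and none with IgG numbered 2609 at 3 reads and 37 at 10. The cause of these shifts was not tested.

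No paired analysis was possible because the Ago and IgG libraries share no library number. IgG libraries hold 24622 to 42916 reads over 106382 peaks, so a peak without IgG reads has only a bound.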
